A study of Mus musculus with 69 samples.

Results

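The hippocampus of 12.12-month-old wild-type (WT) male mice was compared after gardiquimod, a small-molecule agonist of Toll-like receptor 7 (TLR7), and after saline, with n = 7 libraries in each group. These 14 libraries were all those of the series labelled male, wild-type and treated with gardiquimod or saline, out of 69 libraries in all. Another 14 libraries, from 9.6-month-old wild-type females given the same agents (n = 7 and n = 7), were used for comparison only. The labels state no strain, dose, route or interval between treatment and collection. They name hippocampus as the tissue but describe the RNA as nuclear and as isolated from microglia. The libraries were made from the 3′ ends of polyadenylated transcripts, and gene levels are given as CPM, counts scaled to the size of the library with TMM (trimmed mean of M values) factors. Since no label ties a library to a separate animal, p-values measure only the spread between these samples.

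TLR7 is an endosomal receptor for single-stranded RNA that is found in microglia, the resident macrophages of the brain, and in some other immune cells. Through the adaptor Myd88 it activates NF-kB, which drives cytokine genes, and the transcription factor Irf7, which drives type I interferon genes. Secreted interferon acts on neighbouring cells through Ifnar1 and Ifnar2, and a transcription factor complex that includes Irf9 then binds interferon-stimulated response elements (ISREs) in the promoters of antiviral and antigen-presentation genes.

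Gardiquimod-treated male hippocampus had higher levels of interferon-induced and major histocompatibility complex (MHC) class I genes, and the members of 7 lists of such genes made up 16 of the 29 genes that rose. Irf7 rose 3.19-fold, the interferon-induced gene Ifi27l2a rose 4.67-fold, and B2m, the shared light chain of MHC class I molecules, rose 1.46-fold. The 13 other genes that rose included the collagen gene Col6a1, the MHC class II gene H2-Eb1 and the glucocorticoid-induced gene Tsc22d3. The 9 genes that fell included the synaptic scaffold gene Homer1 and the receptor genes Sstr4 and Chrna7. Genes counted as called had a Benjamini-Hochberg adjusted p below 0.05 in edgeR's quasi-likelihood test over 17218 genes, and 38 genes passed, which is 0.221% of those tested. Higher calls were 0.168% of the genes tested and lower calls were 0.0523%. Leaving out 1 male library at a time gave between 7 calls (without saline replicate 1) and 329 calls (without saline replicate 3). Of the 38 genes, 7 were called in all 14 of these fits (B2m, Irf7, Homer1, Glt8d2, Rtp4, H2-T23 and Lgals3bp) and the other 31 in 5 to 13 of them. The saline group was uneven in Ttr, a choroid plexus transcript, as described below. With Ttr as a covariate 3 genes were called, and without the 4 saline libraries of low Ttr 0 were called.

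The promoters of the called interferon and MHC class I genes are shown first, because the motif that the interferon-activated complex binds can be read in them. The sequences are from RefSeq (GRCm38.p6) and cover 250 bases before to 50 bases after each gene's start, and 13 of the 16 genes had an entry. The motif searched, the core of the ISRE, is a pair of GAAA repeats with 2 free bases between them, and on the other strand it reads as TTTC repeats. It occurred in 8 of those 13 genes, against 3.6% of the 12220 tested genes with an entry. Among all tested members of the 7 lists, called or not, 50 of 117 with an entry held it (42.7%). Of the 22 other called genes, 18 had an entry and 1 of these, Homer1, held the motif. The stretches below lie before the start and read 5′ to 3′ on the gene's strand, with the matches in capitals.

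B2m: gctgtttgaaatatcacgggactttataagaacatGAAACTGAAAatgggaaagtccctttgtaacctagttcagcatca

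H2-T23: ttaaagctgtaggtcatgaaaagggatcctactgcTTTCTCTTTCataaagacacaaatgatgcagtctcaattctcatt

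Bst2: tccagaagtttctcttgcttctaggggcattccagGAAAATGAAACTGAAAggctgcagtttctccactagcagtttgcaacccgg

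Ifit1: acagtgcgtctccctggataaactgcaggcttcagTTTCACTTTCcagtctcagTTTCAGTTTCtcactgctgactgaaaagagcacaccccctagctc

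Ifit3: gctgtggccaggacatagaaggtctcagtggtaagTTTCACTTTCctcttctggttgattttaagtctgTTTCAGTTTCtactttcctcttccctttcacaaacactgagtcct

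Gbp3: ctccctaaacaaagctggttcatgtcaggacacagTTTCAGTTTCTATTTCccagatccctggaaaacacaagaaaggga

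Irgm1: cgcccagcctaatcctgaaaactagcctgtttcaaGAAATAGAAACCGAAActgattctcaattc

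Trim30a: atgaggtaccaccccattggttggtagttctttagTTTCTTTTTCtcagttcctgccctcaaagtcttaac

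They span chr2:122147513-122147592 (B2m, + strand), chr17:36032781-36032860 (H2-T23, − strand), chr8:71537552-71537637 (Bst2, − strand), chr19:34640750-34640848 (Ifit1, + strand), chr19:34583338-34583451 (Ifit3, + strand), chr3:142559964-142560043 (Gbp3, + strand), chr11:48871421-48871485 (Irgm1, − strand) and chr7:104465194-104465264 (Trim30a, − strand). In Bst2, Gbp3 and Irgm1 a pair of overlapping matches formed a longer repeat, and in Ifit1 and Ifit3 a pair of matches stood apart. The matches lay between 156 and 15 bases before the start. A match is a description of the sequence and not a measured binding site. A STAT-type site, TTC and GAA with 3 free bases between them, occurred in 1 of the 13 genes and in 8.04% of tested genes with an entry, and an NF-kB-type site, GGG and TTTCC with 2 free bases between them on either strand, in 2 of the 13 and in 1.95%. Both sites may overlap an ISRE match.

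The male libraries held 14.33 to 18.38 M counts each (medians 15.03 M for saline and 16.88 M for gardiquimod), and their rank correlations lay between 0.9798 and 0.9935. Markers of the hippocampal subfields were plainly present: the dentate granule cell gene Prox1 was at 46.4 to 83.0 CPM, the CA1 gene Wfs1 at 60.7 to 121 CPM and the CA3 gene Grik4 at 35.6 to 61.7 CPM over the 14 libraries. Genes of blood leukocytes were low, with a summed level of 11.9 to 19.03 CPM in saline and 12.1 to 26.4 CPM in gardiquimod over a list of 25, of which 6 passed the filter and none was called. The neutrophil gene Ly6g had 0 counts in any library and the T cell gene Cd3e at most 0.567 CPM, while S100a8 and S100a9, also of neutrophils, reached 5.60 and 4.96 CPM and the pan-leukocyte gene Ptprc, which microglia share, was at 2.88 to 4.93 CPM. Some lymphocyte genes below the filter had more counts in gardiquimod than in saline, which was not tested. Cd8a of T cells had 38 against 9 and Cd79a of B cells 57 against 18. Other members differed less, Cd3e with 15 against 10 and Trbc2 with 59 against 59, and S100a9 had 155 against 220. The libraries were thus analysed as whole hippocampus, in which fewer cells of a type and less RNA per cell cannot be told apart.

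The saline group was uneven in choroid plexus, a secretory tissue that lies against the hippocampus. Ttr, its most abundant transcript, was at 96.1, 111, 128 and 131 CPM in saline replicates 1, 4, 6 and 5, and at 1916, 2012 and 3561 CPM in replicates 2, 7 and 3. In the gardiquimod group it ran from 996 to 4684 CPM (median 2850 CPM). All 20 tested choroid plexus genes had a positive log2 difference, against 8324 of 17218 over all genes, and none was called. Their summed level was 362 to 6081 CPM in saline and 1964 to 6521 CPM in gardiquimod. The log2 difference in Ttr was 1.39 ± 0.96 (SE, edgeR adjusted p = 0.483), and the exact permutation test of Ttr alone gave a 2-sided p of 0.0262. The results were therefore also computed without the 4 saline libraries of low Ttr, a choice made after seeing the data. That fit of 3 against 7 males called 0 genes in edgeR, with 805 genes (4.48%) at an unadjusted p under 0.05, and 2 genes in DESeq2. All 38 called genes had the same sign in it. The libraries of this fit were among those that chose these genes, so the kept signs and the medians below are descriptive. The median log2 change of the 16 interferon and MHC class I genes was 0.79 in place of 0.84. That of the 13 other genes that rose was 0.46 in place of 0.55, and that of the 9 that fell was −0.29 in place of −0.51, with 8 of these 9 at an unadjusted p under 0.05. Gene by gene, the ratio of this log2 change to the one with all libraries had a median of 0.834 in the 16 (0.615 to 1.24). It was 0.809 in the 13 (0.605 to 1.2) and 0.643 in the 9 (0.427 to 0.828).

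**Figure D1:**
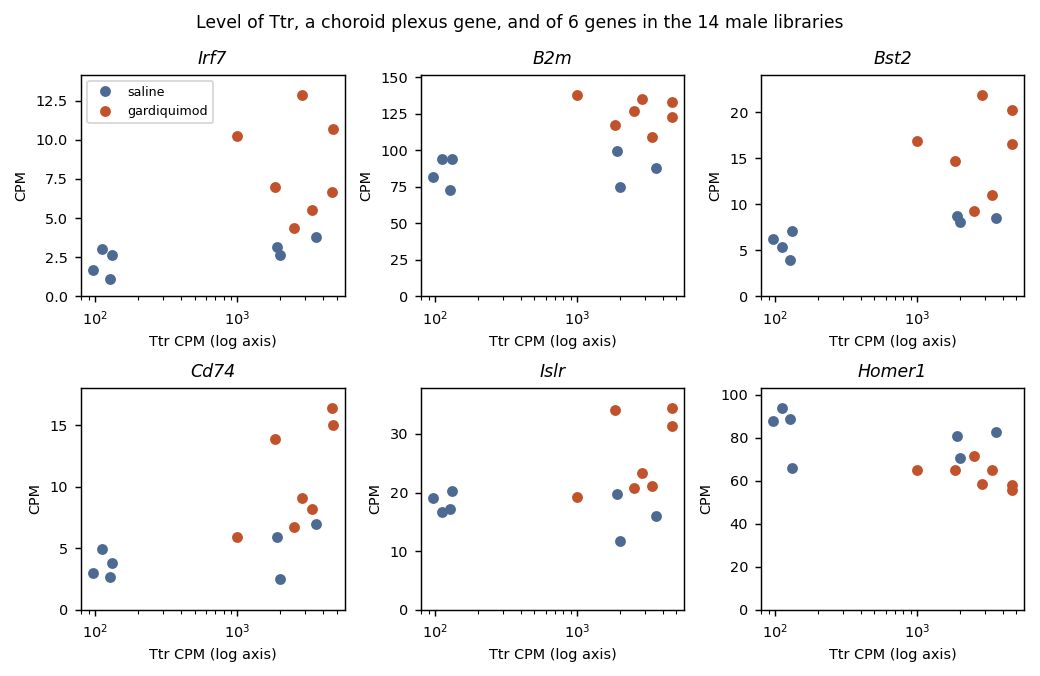
CPM of Ttr (log axis, x) and of 6 genes (linear axis, y) in the 7 saline and 7 gardiquimod male libraries, 1 point per library. Irf7 and B2m were higher in every gardiquimod library than in the 3 saline libraries of high Ttr, while Cd74 ranges overlapped there.

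The RNA of the agonist's receptor was not called as changed. Tlr7 was at 1.88 to 3.64 CPM (median 3.21) in saline and 1.80 to 3.33 CPM (median 2.85) in gardiquimod. Its log2 change was −0.09 ± 0.18 (SE, edgeR adjusted p = 0.832), with almost fully overlapping groups. Of 28 tested genes of TLR7 sensing and signalling, none was called and the median log2 change was 0.02, against −0.01 over all genes. The adaptor Myd88 had a log2 difference of 0.35 ± 0.13 (adjusted p = 0.197) and the kinase Irak1 one of 0.22 ± 0.08 (adjusted p = 0.164), the latter 0.085 without the low-Ttr libraries.

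Interferon genes themselves were at the limit of detection. Ifna1, Ifna2, Ifna4, Ifna5, Ifne, Ifng, Ifnl2 and Ifnl3 had 0 counts in all 14 male libraries. Ifnb1 and Ifna6 each had 1 count in the gardiquimod group and 0 in saline, below the 3 counts that a count of 0 allows. The type I receptor gene Ifnar1 was at 31.4 to 37.9 CPM in saline and 33.4 to 37.99 CPM in gardiquimod, and Ifnar2 at 10.4 to 13.2 and 11.5 to 15.1 CPM, with overlapping groups and no call.

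Among the transcription factors, Irf7 changed most clearly. Irf7 (chr7:141262706-141266481, GRCm38) was at 1.11 to 3.79 CPM (median 2.64) in saline and 4.36 to 12.9 CPM (median 7.01) in gardiquimod. Every gardiquimod library lay above every saline library. Groups without overlap were found for 53 of all tested genes (0.308%), of which 40 were higher (0.232%) and 13 lower (0.0755%). Among the 38 called genes there were 18 without overlap. These were 10 of the 16 interferon and MHC class I genes, 6 of the 13 others that rose and 2 of the 9 that fell. The calls rest on the same values, so these counts are descriptive. The log2 change of Irf7 was 1.67 ± 0.27 (SE, edgeR adjusted p = 0.00815), and it was called in all 14 fits that left out 1 library. It was 1.36 without the 4 saline libraries of low Ttr (adjusted p = 0.961). Irf7 overlaps Phrf1, and Rtp4 overlaps Masp1, on the opposite strand, and whether reads were counted by strand is not given in the sources used here.

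Irf9, which carries the interferon signal to the nucleus, did not pass. Irf9 was at 6.18 to 12.4 CPM in saline and 12.3 to 15.6 CPM in gardiquimod, a log2 difference of 0.49 ± 0.12 (edgeR adjusted p = 0.0604) that was 0.30 without the low-Ttr libraries. Of 16 tested JAK, STAT and IRF genes, 1 rose, 13 had a positive sign, and the median was 0.18, or 0.090 without those libraries.

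Antiviral effector genes formed the group with the most calls after MHC class I: 4 of 30 tested members rose, none fell and the median log2 change was 0.61. At an unadjusted p under 0.05, 19 were higher and none lower, against 7.57% and 8.24% of all genes. Bst2, whose product tethers budding virus to the cell surface, was at 3.95 to 8.69 CPM (median 7.13) in saline and 9.26 to 21.9 CPM (median 16.5) in gardiquimod. The groups did not overlap, and the log2 change was 1.21 ± 0.22 (edgeR adjusted p = 0.0179), or 0.92 without the low-Ttr libraries.

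The neighbouring genes Ifit1 and Ifit3, whose products bind foreign RNA and block its translation, also rose without overlap. Ifit1 went from 1.24 to 4.76 CPM (median 3.13) in saline to 4.86 to 10.995 CPM (median 7.51) in gardiquimod, a log2 change of 1.34 ± 0.27 (edgeR adjusted p = 0.0273). Ifit3 went from 5.56 to 13.8 CPM (median 10.1) to 15.2 to 32.2 CPM (median 19.3), a log2 change of 1.07 ± 0.22 (adjusted p = 0.0369). Each was called in only some of the 14 fits without 1 library, Ifit1 in 8 and Ifit3 in 7. Rtp4, an interferon-induced chaperone of receptors, was at 1.59 to 3.93 CPM in saline and 3.77 to 7.65 CPM in gardiquimod, so that 6 of 7 gardiquimod libraries lay above all saline ones (log2 change 1.14 ± 0.20, adjusted p = 0.00815). The change of Rtp4 was 0.82 without the low-Ttr libraries.

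Among other interferon-induced genes, 3 of 29 tested rose and the median log2 change was 0.38. Ifi27l2a, an interferon-induced gene of the Ifi27 family, had the largest change of the 38 called genes: it was at 0.494 to 3.22 CPM (median 1.95) in saline and 5.06 to 13.5 CPM (median 7.86) in gardiquimod. Its groups did not overlap and its log2 change was 2.22 ± 0.39 (SE, edgeR adjusted p = 0.0146), or 1.76 without the low-Ttr libraries. Lgals3bp, which encodes a secreted galectin-binding glycoprotein, was at 17.2 to 28.4 CPM in saline and 34.6 to 74.1 CPM in gardiquimod, again without overlap (1.08 ± 0.19, adjusted p = 0.0117). Ifi27, next to Ifi27l2a on chromosome 12, was at 39.2 to 80.8 CPM and 64.9 to 107 CPM, with overlapping groups (0.78 ± 0.16, adjusted p = 0.0369), and its change was 0.48 without the low-Ttr libraries.

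**Figure D2:**
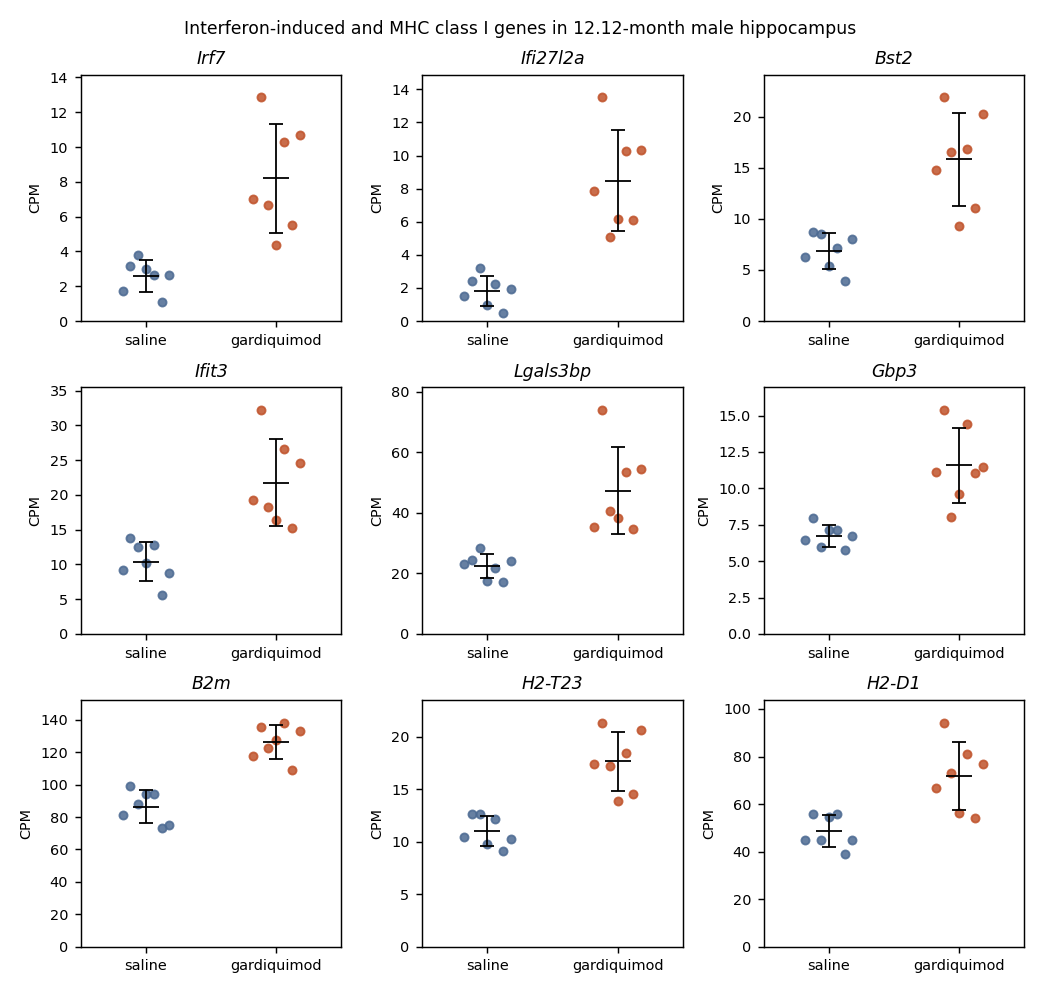
CPM of 9 called interferon-induced and MHC class I genes in male hippocampus (linear axes from 0), 1 point per library, with the mean and SD of each group of 7 as horizontal marks and bars. In Irf7, Ifi27l2a, Bst2, Ifit3, Lgals3bp, Gbp3, B2m and H2-T23 the groups do not overlap, and in H2-D1 they do.

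The ISG15 and ubiquitin genes, cytosolic RNA and DNA sensors and interferon-inducible GTPases were higher on the whole, with few calls. In the ISG15 and ubiquitin list 1 of 20 tested genes rose (median 0.47), and 16 were higher at an unadjusted p under 0.05, against 7.57% of all genes. The gene that rose, Trim30a, encodes a ubiquitin ligase induced by interferon and was at 1.94 to 3.61 CPM in saline and 4.03 to 5.53 CPM in gardiquimod (log2 change 0.90 ± 0.18, edgeR adjusted p = 0.0181). The change of Trim30a was 0.64 without the low-Ttr libraries. Isg15 itself was at 0.741 to 2.79 and 1.77 to 4.80 CPM, a difference of 0.81 ± 0.25 (adjusted p = 0.134), and Usp18, which removes ISG15 from proteins, differed by 1.34 ± 0.34 (adjusted p = 0.0768).

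None of 13 tested sensor genes was called, though their median log2 change was 0.51 and 7 were higher at an unadjusted p under 0.05, against 7.57% of all genes. Ifih1, the sensor of long dsRNA, differed by 0.61 ± 0.14 (edgeR adjusted p = 0.0529) and Ddx58, the sensor RIG-I, by 0.51 ± 0.15 (adjusted p = 0.112). The median of the sensors was 0.33 without the low-Ttr libraries, where Ifih1 differed by 0.26 and Ddx58 by 0.33.

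The GTPases, which attack the vacuoles of intracellular microbes, had 2 of 17 tested genes rising and a median of 0.63. At an unadjusted p under 0.05 there were 13, all higher, against 7.57% of all genes. Gbp3 was at 5.75 to 7.99 CPM in saline and 8.01 to 15.4 CPM in gardiquimod (log2 change 0.78 ± 0.15, edgeR adjusted p = 0.0167). The ranges nearly met but did not overlap. Irgm1, a regulator of autophagy, was at 6.77 to 9.51 and 9.49 to 14.96 CPM (0.63 ± 0.12, adjusted p = 0.0179), with 6 of 7 gardiquimod libraries above all saline libraries.

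MHC class I presentation had 5 called members of 26 tested, all higher, with a median log2 change of 0.29. B2m (chr2:122147686-122153083, GRCm38) had the smallest p of all genes: it was at 73.0 to 99.3 CPM (median 87.8) in saline and 109 to 138 CPM (median 127) in gardiquimod. The groups did not overlap, and the log2 change was 0.55 ± 0.08 (SE, edgeR adjusted p = 4.24e-04). The change was 0.54 without the 4 saline libraries of low Ttr (adjusted p = 0.0572).

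The heavy chains rose beside their light chain. H2-K1 was at 33.5 to 49.4 CPM in saline and 47.3 to 73.7 CPM in gardiquimod, and H2-D1 at 38.9 to 56.0 and 54.0 to 94.2 CPM. Both classical heavy chain genes overlapped slightly between groups, with log2 changes of 0.52 ± 0.10 and 0.56 ± 0.11 (edgeR adjusted p = 0.0254 and 0.0262). The non-classical H2-T23, which encodes the ligand Qa-1 of inhibitory receptors on natural killer cells, was at 9.14 to 12.7 and 13.9 to 21.3 CPM without overlap (0.68 ± 0.12, adjusted p = 0.00966). H2-Q4 was at 3.40 to 9.18 and 7.47 to 12.7 CPM (0.79 ± 0.16, adjusted p = 0.0181). The heavy chain genes are close relatives, and reads they share could be split between them by a counting step that is not given in the sources used here.

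Over the 7 interferon and MHC class I lists together, 150 distinct genes were tested, 134 had a positive log2 change and 92 were higher at an unadjusted p under 0.05, while 2 were lower. Their median was 0.45. Over all 17218 genes tested, 8324 had a positive change, and 7.57% were higher and 8.24% lower at that p. The lists were chosen with earlier results of these data known. Every one of the 7 list medians was smaller without the 4 saline libraries of low Ttr. It was 0.53 in place of 0.61 for the antiviral effectors, 0.51 in place of 0.63 for the GTPases, 0.33 in place of 0.47 for ISG15 and ubiquitin, 0.33 in place of 0.51 for the sensors, 0.25 in place of 0.38 for other interferon-induced genes, 0.19 in place of 0.29 for MHC class I and 0.090 in place of 0.18 for the JAK, STAT and IRF genes. With Ttr as a covariate these medians were 0.63, 0.59, 0.38, 0.45, 0.33, 0.25 and 0.12.

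MHC class II genes present peptides taken up from outside the cell and are expressed by few cells in the brain, among them macrophages of its borders. Of 13 tested class II and co-stimulation genes, 1 rose and all had a positive sign, with a median of 0.26, or 0.43 without the low-Ttr libraries. H2-Eb1 was at 0.803 to 3.51 CPM (median 2.22) in saline and 2.73 to 7.22 CPM (median 4.91) in gardiquimod. The ranges overlapped, with 6 of 7 gardiquimod libraries above all saline ones, and the log2 change was 1.33 ± 0.28 (edgeR adjusted p = 0.0369). The invariant chain gene Cd74 was at 2.50 to 7.01 and 5.92 to 16.4 CPM, a difference of 1.34 ± 0.32 (adjusted p = 0.0662), and H2-Aa differed by 1.26 ± 0.32 (adjusted p = 0.0768).

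Genes of the tissues at the border of the brain had mostly positive signs, with 1 call. All 9 tested genes of border-associated macrophages had a positive sign and none was called, with 3 higher and none lower at an unadjusted p under 0.05. The summed level of the list was 25.6 to 38.9 CPM in saline and 31.6 to 56.4 CPM in gardiquimod. Stab1 alone made up 16.5 to 21.5 and 15.8 to 29.5 CPM of that sum. Of 26 fibroblast, meningeal and matrix genes, 24 had a positive sign and 1, Col6a1, was called. At an unadjusted p under 0.05, 19 were higher and none lower, against 7.57% and 8.24% of all genes. Their summed levels of 765 to 1141 CPM and 1156 to 1646 CPM did not overlap. Sparc alone made up 459 to 661 and 599 to 879 CPM of these sums, with overlapping ranges. Of both lists the macrophage gene Clec4n, not tested, was the only one at 0 in any library (1 of 14), and the part of these tissues in the class II result was not tested. Without the 4 saline libraries of low Ttr, H2-Eb1 differed by 1.26, and the medians of the macrophage and fibroblast lists were 0.32 and 0.32 in place of 0.47 and 0.61.

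The genes by which resting microglia are recognised had no call. Of 22 homeostatic microglia genes 2 were higher and none lower at an unadjusted p under 0.05, against 7.57% and 8.24% of all genes. Their median was 0.03. P2ry12, the purine receptor of resting microglia, was at 36.2 to 51.2 CPM in saline and 33.9 to 49.7 CPM in gardiquimod, and Cx3cr1, the fractalkine receptor, differed by −0.14 ± 0.08 (edgeR adjusted p = 0.355; −0.036 without the low-Ttr libraries). The P2ry12 ranges of the groups overlapped over most of their length.

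Of 26 genes of disease-associated microglia, a state described around amyloid plaques and damaged myelin, none was called and the median was 0.14, or 0.078 without the low-Ttr libraries. At an unadjusted p under 0.05, 8 were higher and 2 lower, against 7.57% and 8.24% of all genes. The lipid receptor Trem2 was at 18.97 to 26.3 and 21.3 to 26.6 CPM (0.04 ± 0.08, edgeR adjusted p = 0.822), and Apoe differed by 0.08 ± 0.10 (adjusted p = 0.714). The largest differences were in Clec7a, a receptor for fungal glucans, at 0.432 to 1.65 and 1.36 to 2.48 CPM (0.85 ± 0.25, adjusted p = 0.114), and in Cd52 (0.73 ± 0.22, adjusted p = 0.111).

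The cytokine and NF-kB arm had 1 called gene of 23 tested, Cxcl16, with a median of 0.13, or 0.060 without the low-Ttr libraries. Cxcl16, a membrane-bound chemokine, was at 0.927 to 2.07 CPM in saline and 2.21 to 4.04 CPM in gardiquimod, without overlap (log2 change 0.85 ± 0.19, edgeR adjusted p = 0.0494). It was called in 5 of the 14 fits without 1 library. The interferon-induced chemokine Cxcl10 was at 0.371 to 1.97 and 0.474 to 3.81 CPM, which was not called (log2 difference 1.13 ± 0.44, adjusted p = 0.215). In the complement list none of 17 was called, and 6 were higher and none lower at an unadjusted p under 0.05, against 7.57% and 8.24% of all genes. The complement gene C4b differed by 0.52 ± 0.14 (edgeR adjusted p = 0.0859). The median of that list was 0.32, but 0.16 without the low-Ttr libraries and 0.14 with Ttr as a covariate.

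Oligodendrocyte genes had 1 call. Mbp, the myelin basic protein gene, was at 1999 to 3989 CPM in saline and 3405 to 4240 CPM in gardiquimod (0.23 ± 0.13, edgeR adjusted p = 0.408), and the difference was −0.011 without the low-Ttr libraries. Of 31 myelin and oligodendrocyte genes 1 rose and the median was 0.05, or −0.015 without those libraries. The gene that rose, Apod, encodes a lipid-binding lipocalin also made by astrocytes and fibroblasts, and was at 120 to 191 and 174 to 247 CPM (0.55 ± 0.12, adjusted p = 0.0448). Among 13 precursor genes and 22 cholesterol synthesis genes none was called, with medians of −0.05 and 0.03 (0.046 and 0.056 without the low-Ttr libraries).

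Neuronal genes had mostly negative signs. Of 38 genes of excitatory synapses and dendrites, 1 fell and 27 had a negative sign, with a median of −0.17. At an unadjusted p under 0.05, 18 were lower and none higher, against 8.24% and 7.57% of all genes. The summed level of the list had a higher median in gardiquimod. It was 33124 to 38905 CPM (median 35286.5) in saline and 29646 to 41189 CPM (median 36497.9) in gardiquimod. Homer1, a postsynaptic scaffold that links metabotropic glutamate receptors to calcium stores, was at 65.7 to 93.8 CPM (median 82.8) in saline and 55.6 to 71.5 CPM (median 64.8) in gardiquimod. In 6 of 7 gardiquimod libraries it lay below all saline libraries, and the log2 change was −0.38 ± 0.07 (SE, edgeR adjusted p = 0.00815). Homer1 differed by −0.31 without the 4 saline libraries of low Ttr (adjusted p = 0.608). Its receptor partner Grm5 differed by −0.36 ± 0.10 (adjusted p = 0.103), but by −0.094 without those libraries, and the median of the list was then −0.031.

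Receptor and secreted factor genes of neurons were among the other calls. Sstr4, the somatostatin receptor gene of hippocampal pyramidal cells, was at 15.1 to 23.9 CPM in saline and 11.1 to 14.98 CPM in gardiquimod, without overlap (−0.51 ± 0.11, edgeR adjusted p = 0.0369). Chrna7, the alpha-7 nicotinic receptor gene, was at 14.6 to 26.7 and 11.2 to 17.7 CPM (−0.55 ± 0.12, adjusted p = 0.0472). Both ranges were wider in saline. Slc8a1, a sodium-calcium exchanger gene, fell by 0.50 on the log2 scale (adjusted p = 0.0179), and Inhba, the activin A subunit gene, fell by 0.53 (adjusted p = 0.0448). All 4 were smaller without the low-Ttr libraries, at −0.29 for Sstr4, −0.24 for Chrna7, −0.27 for Slc8a1 and −0.34 for Inhba. Sstr4 was called in 7, Chrna7 in 5, Slc8a1 in 10 and Inhba in 6 of the 14 fits without 1 library.

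The remaining genes that fell were Hsph1, Slc37a3, Kbtbd6 and Glt8d2. Glt8d2, a glycosyltransferase gene, was at 9.17 to 14.8 CPM in saline and 5.86 to 9.77 CPM in gardiquimod (−0.74 ± 0.13, edgeR adjusted p = 0.00815), and it overlaps Tdg on the opposite strand. Inhba likewise overlaps a transcribed pseudogene, B230303A05Rik, so that its reads could include those of its neighbour.

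Markers of the hippocampal subfields mostly differed in the same direction as the synaptic genes. Dentate granule cell, CA1 and CA2 and CA3 genes had medians of −0.24, −0.17 and −0.22, and none was called. At an unadjusted p under 0.05, 5 of 11, 4 of 10 and 6 of 12 were lower, against 8.24% of all genes. In that order 2, 2 and 3 had a positive sign, and 1 CA2 and CA3 gene was higher at that p. Inhibitory neuron genes had a median of −0.16 with 9 of 29 lower. Without the 4 saline libraries of low Ttr the medians were −0.10, −0.04 and −0.06 for the subfields, −0.03 for the excitatory synapse list and 0.035 for the inhibitory list, whose sign turned. The part of tissue composition in the lower neuronal values was not tested beyond these figures.

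Heat shock genes, which encode protein chaperones, had mostly negative signs: of 18 tested, 1 fell, with a median of −0.19. At an unadjusted p under 0.05, 11 were lower and 1 was higher, against 8.24% and 7.57% of all genes. Hsph1, which encodes a co-chaperone of Hsp70, was at 114 to 184 CPM in saline and 97.8 to 121 CPM in gardiquimod (−0.39 ± 0.08, edgeR adjusted p = 0.0269). The inducible chaperone Hspa1b differed by −0.61 ± 0.16 (adjusted p = 0.0829). Without the low-Ttr libraries these were −0.25 and −0.37, and the median of the list was −0.13.

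Tsc22d3, Rcan2 and Col6a1 were among the other genes that rose. Tsc22d3 (Gilz), a glucocorticoid-induced transcriptional regulator, was at 47.0 to 66.3 CPM in saline and 68.9 to 101 CPM in gardiquimod (0.48 ± 0.11, edgeR adjusted p = 0.0484). Rcan2, an inhibitor of the phosphatase calcineurin, was at 101 to 134 and 137 to 169 CPM (0.37 ± 0.07, adjusted p = 0.0179). Col6a1, a chain of collagen VI, was at 9.83 to 15.1 and 15.5 to 25.1 CPM (0.72 ± 0.15, adjusted p = 0.0262). All 3 were without overlap. Tsc22d3 was called in 7, Rcan2 in 11 and Col6a1 in 9 of the 14 fits without 1 library. In that order they differed by 0.35, 0.28 and 0.87 without the low-Ttr libraries.

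Of 22 genes of the glucocorticoid response Tsc22d3 alone was called, and the median was 0.12. Astrocyte genes had no call among 18, with a median of 0.18 and 17 positive signs, the amino acid transporter Slc7a10 being closest at 0.46 ± 0.10 (edgeR adjusted p = 0.0515; 0.24 without the low-Ttr libraries). The other called genes that rose were Zfp385a, Mbd2, Gstt3, Cyp27a1, Chil1, Abhd4 and the unnamed model Gm20559, with log2 changes from 0.25 to 0.93. Without the low-Ttr libraries Mbd2 differed by 0.16, Chil1 by 0.23 and Abhd4 by 0.19.

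**Figure D3:**
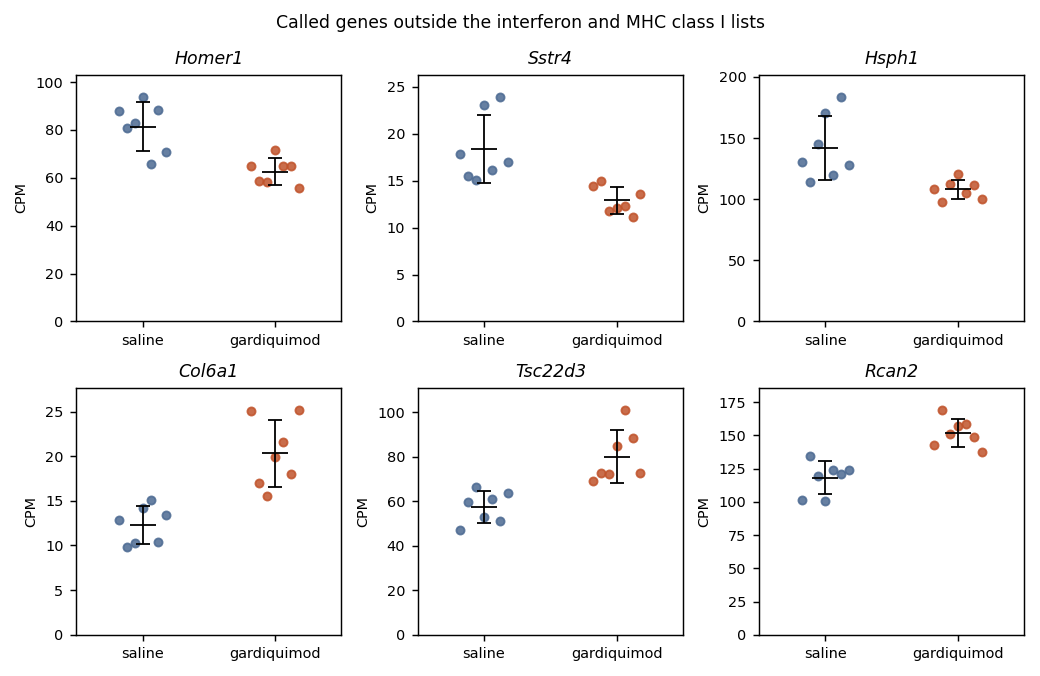
CPM of 6 called genes outside the interferon and MHC class I lists in male hippocampus (linear axes from 0), 1 point per library, with the mean and SD of each group of 7. Homer1 and Hsph1 ranges overlap between groups, and those of Sstr4, Col6a1, Tsc22d3 and Rcan2 do not.

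The females were used to see which male changes recurred. Their libraries are not in the male contrast, but the filter, scaling and spread behind the 38 calls used all 28 libraries. The female values are thus not fully independent of the choice of genes. The male libraries alone called 19 genes, 17 of them among the 38. The females differ from the males in age as well as sex, and the contributions of sex and age cannot be told apart. In females 4 genes were called (0.0232% of those tested), and at an unadjusted p under 0.05 2.46% of genes were higher and 3.6% lower. All 16 called interferon and MHC class I genes had a positive change in females and all 16 reached an unadjusted p under 0.05, with a median log2 change of 0.67 against 0.84 in males. Over all tested genes 51.9% had a positive and 48.1% a negative change in females. In females Irf7 rose by 1.60 ± 0.26 (edgeR adjusted p = 0.0121), B2m by 0.44 ± 0.08 (adjusted p = 0.0121), Bst2 by 1.20 ± 0.22 (adjusted p = 0.048) and H2-D1 by 0.59 ± 0.11 (adjusted p = 0.0485). Those were the 4 female calls.

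The interaction, which tests whether the response differed between the 2 sets of mice, called 1 gene of 17218 (0.00581%) and passed an unadjusted p under 0.05 for 16.2% of genes. None of the 16 interferon and MHC class I genes reached an unadjusted p under 0.05 in it, the lowest adjusted p being 0.419. The interaction contains the male contrast that chose these genes, so its values for them are descriptive.

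The other 22 called genes had a different pattern. Of the 13 that rose in males, 3 had a positive sign in females and none reached an unadjusted p under 0.05, with a female median of −0.09. Of the 9 that fell in males, 1 had a negative sign in females, and their female median was 0.06. All 22 had an unadjusted interaction p under 0.05, against 16.2% of all genes. The interaction contains the male contrast that chose these 22 genes too, so that count is descriptive. Col6a1 was called in the interaction: it rose by 0.72 ± 0.15 in males and differed by −0.54 ± 0.14 in females (edgeR adjusted p = 0.452), a difference in response of −1.26 ± 0.20 (adjusted p = 0.0144). H2-Eb1 differed by −0.02 and Homer1 by 0.01 in females.

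Several list medians also had opposite signs in the 2 sets of mice. The fibroblast and matrix list had a median of 0.61 in males and −0.26 in females, the border macrophage list 0.47 and −0.29, and the dentate granule cell list −0.24 and 0.17. Without the low-Ttr male libraries the male medians were 0.32, 0.32 and −0.10. Mitochondrially encoded genes had medians of 0.28 and −0.35, with no male member at an unadjusted p under 0.05, and the male median turned to −0.024 without the low-Ttr libraries and was 0.054 with Ttr as a covariate. The antiviral effectors had 0.61 and 0.32 and the GTPases 0.63 and 0.35, positive in both.

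**Figure D4:**
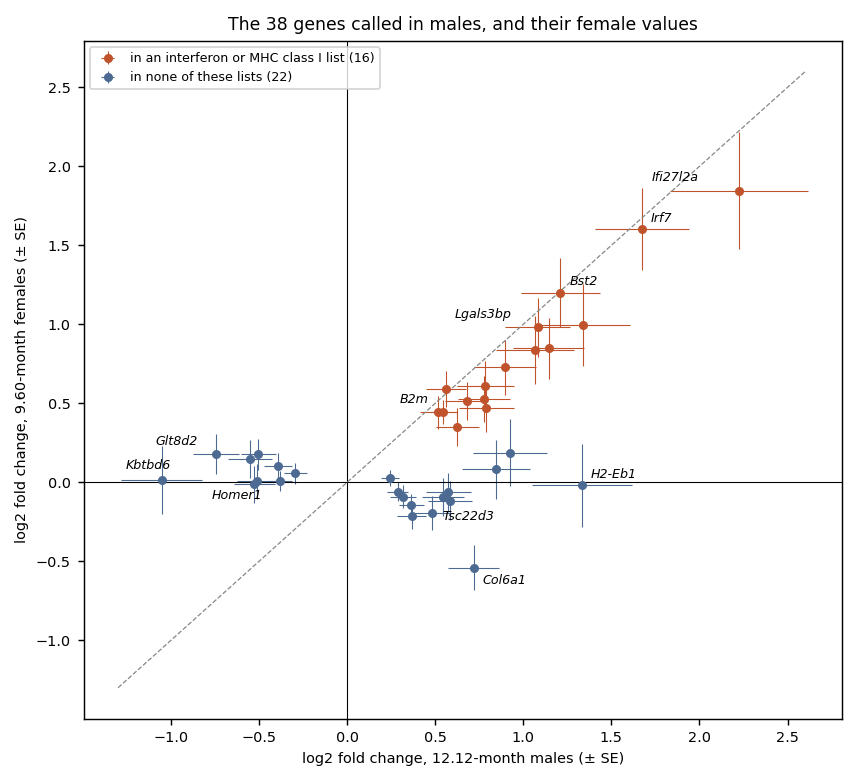
Log2 fold change of the 38 genes called in 12.12-month males (x) against the same contrast in 9.60-month females (y), with SE bars, the dashed line marking equal values. The 16 interferon and MHC class I genes (orange) lie between 0.35 and 1.85 in females, and the other 22 (blue) between −0.54 and 0.19.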

How the data were processed

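The authors deposited raw read counts per gene for 28 hippocampal libraries of 4 groups (7 each), made with the QuantSeq 3′ forward kit per the labels' protocols. Reads start near the transcript's end, so levels were not divided by gene length. The submitters' processing notes name DESeq2 1.38.3 and the builds GRCm38 and mm10. Aligner, annotation and strand setting: the sources used here do not give them. Groups came from the labels. The 54532 genes were filtered with filterByExpr, scaled by TMM and fitted with 1 mean per group over all 28 libraries in edgeR 4.0.16 (robust quasi-likelihood, R 4.3.3), which left 17218 genes. Contrasts were 2-sided, adjusted by Benjamini-Hochberg over all genes, and called at 0.05. SE values were taken from the log2 change and its F statistic. Exact permutation tests on log2(CPM + 0.5) used all 3432 arrangements of 7 against 7, so the smallest possible p is 0.000583. Counting floors (3 counts) cover counting error only.

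Named genes were 12 set genes, all called genes and, in each of 40 lists, the called members and up to 3 with the smallest unadjusted p and at least 1 mean CPM. Some of these are not reported here. Other genes named were chosen after their values were seen. The members, lists and rule were chosen with earlier results of these data known. Alternatives were DESeq2 1.42.0, voom with quality weights (limma 3.58.1), the male libraries alone, other filters, scalings and dispersions, Ttr as a covariate and leaving out libraries. The edgeR, DESeq2 and limma steps were tested on simulated data.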

Additional observations from a re-analysis of the deposited data

Results flagged for a closer look

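In the saline males Cxcl10 stood apart in replicate 2, at 1.97 CPM, where the next library had 0.893 CPM and the lowest 0.371 CPM. Cyp27a1 stood apart in saline replicate 4, at 3.00 CPM, where the next had 4.06 CPM and the highest 4.65 CPM. Both gaps exceeded Dixon's 95% critical value for 7 samples. Of 94 groups examined 2 did so, and chance alone gives about 5%. The response of Col6a1 differed between females and males by −1.26 on the log2 scale, tested by the interaction in edgeR.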

How the results depend on the processing

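No paired analysis was possible because replicate numbers follow the order of the samples and carry no pairing. Against 38 male calls (29 higher, 9 lower), DESeq2 gave 263 (159 and 104), the male libraries alone 19 (18 and 1), upper quartile scaling 69 (59 higher), voom with quality weights 65 (53 higher) and Ttr as a covariate 3 (3 and 0). The genes kept with Ttr as a covariate were B2m, Irf7 and Rtp4. Without the 4 saline libraries of low Ttr edgeR called 0 (805 at an unadjusted p under 0.05) and DESeq2 2 (2 and 0). Calls that were higher made up 76.3% in edgeR, 60.5% in DESeq2 and 94.7% with the males alone. The interaction had 151 calls in DESeq2, 9 with no filter, 6 with upper quartile scaling, 11 with voom, 2 with Ttr as a covariate and, without those 4 libraries, 0 (1203 at an unadjusted p under 0.05), against 1. The females had 16 in DESeq2, 1 with no filter, 2 with upper quartile scaling, 7 with voom and, without those 4 libraries, 2 in edgeR and 19 in DESeq2, against 4. Leaving out 1 male library gave 7 to 329 male calls (5 to 185 higher, 2 to 144 lower), 1 to 17 in the interaction and 2 to 5 in females. Male calls were 7 without saline replicate 1, 18 without 4, 9 without 6, 74 without 5, 150 without 2 and 329 without 3. They were 10 without gardiquimod replicate 5, 19 without 2, 18 without 7 and 213 without 4. All 38 genes kept their sign in each of these fits. The fits share libraries with the one that chose these genes, so the kept signs are descriptive.

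Changes of sign occurred only in genes that were not called. Without the 4 saline libraries the log2 values were 0.055 for Tlr7, −0.022 for Apoe, −0.011 for Mbp, −0.0086 for Tlr2, 0.0019 for Ifngr2, −0.15 for Ppp1r1b, −0.060 for Pifo, −0.26 for Cfap126, −0.26 for Hbb-bt and −0.014 for mt-Rnr2. DESeq2 on the same libraries gave 0.054, −0.022, −0.011, −0.0080, 0.0022, −0.15, −0.066, −0.27, −0.26 and −0.013 in that order. With Ttr as a covariate Ppp1r1b had −0.016, Pifo −0.052 and Cfap126 −0.063. Without gardiquimod replicate 5 Alas2 had −0.018 (up to 0.56 without another library) and Hbb-bt −0.061 (up to 0.48), and with voom Hba-a2 had −0.025 and Hbb-bt −0.028. The cause was not tested. Genes under about 1 CPM rest on few counts.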
